A study of Homo sapiens and Mus musculus with 16 samples.

Results

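The regions described here are 285 windows of 10 Mb that tile the autosomes of MDA-MB-231 (a triple-negative breast cancer line of human origin), compared between cells with and without an intact PD-L1 gene. Chromosomes 1 to 22 were divided into windows by the start of each gene's locus in hg38. A window was kept when at least 5 of its genes reached 1 FPKM (fragments per kilobase of transcript and 1e+06 mapped fragments) in at least 4 of the 8 libraries. That held for 285 of the 294 windows with any listed gene, and the kept windows held 13942 of the 14450 genes at that level, 5 to 246 per window with a median of 37. The same rule kept 250 windows in CT26, the mouse line of the series, which is not used further, and both lines together held 550 windows with a listed gene. The value of a window is the median over its genes of the knockout mean minus the wild type mean of log2(FPKM + 1), minus the same median over all 14450 genes, so that 0 stands for the behaviour of the typical gene. The windows just inside the gene minimum, with 5 genes, had values of -0.89 (chromosome 6, 60 to 70 Mb), -0.35 (chromosome 13, 10 to 20 Mb) and 0.11 (chromosome 18, 80 to 90 Mb), and those just outside, with 4 or 3 genes, had -0.13 (chromosome 6), -0.42 (chromosome 21) and 0.07 (chromosome 9).

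The study sequenced the RNA of both lines with wild type or knocked-out PD-L1, with 4 libraries per group. In MDA-MB-231 both groups are the same cultured line, and the knockout group carries a lentiviral CRISPR disruption of PD-L1, the ligand through which cells restrain T cells by PD-1. The labels do not tell a pooled knockout from a single clone, say what vector the wild type cells had received, if any, or say that the 4 libraries of a group were separate cultures. What the p-values measure is therefore the spread among libraries, and that spread may be technical. In a bulk sample, fewer cells of a type and less RNA per cell cannot be told apart.

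Genes that lie together on a chromosome can differ together between cell populations, because a gained or lost stretch of DNA changes the dose of every gene on it, and because neighbouring genes can share chromatin domains or belong to clusters of related genes. Tumour lines such as MDA-MB-231 carry many rearranged chromosomes, and populations grown apart can drift in the number of copies of an arm. Expression by position is read in single-cell and bulk RNA studies as an indirect view of such dosage, but it measures RNA and not DNA. In these data the copy number of the regions was not measured, and its part in any value below was not tested.

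Sequences are shown for genes at the edges of some of the changes along the chromosomes described below. They mark the starts of these genes and not the places of the changes. They are the 250 bases before the RefSeq start of each gene, in GRCh38.p14 and on the gene's own strand, 5′ to 3′. UBE4B (chr1:10032708-10032957, plus strand) encodes a ubiquitin ligase and is the last gene of the low end of chromosome 1. KIF1B (chr1:10210320-10210569, plus strand) encodes a kinesin motor and is the next gene on. CCNL1 (chr3:157160148-157160397, minus strand) encodes cyclin L1 and NMD3 (chr3:161221061-161221310, plus strand) a nuclear export adaptor of the large ribosomal subunit, and they are the first and last genes of the run with the highest values on chromosome 3. Capitals mark matches on either strand to the letters GGGCGG (a GC box), CCAAT or TATAAA.
UBE4B: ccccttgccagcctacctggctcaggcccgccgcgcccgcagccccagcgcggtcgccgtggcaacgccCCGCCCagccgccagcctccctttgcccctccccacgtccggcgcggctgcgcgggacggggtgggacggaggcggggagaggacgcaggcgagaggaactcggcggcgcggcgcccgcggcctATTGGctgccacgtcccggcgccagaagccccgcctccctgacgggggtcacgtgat
KIF1B: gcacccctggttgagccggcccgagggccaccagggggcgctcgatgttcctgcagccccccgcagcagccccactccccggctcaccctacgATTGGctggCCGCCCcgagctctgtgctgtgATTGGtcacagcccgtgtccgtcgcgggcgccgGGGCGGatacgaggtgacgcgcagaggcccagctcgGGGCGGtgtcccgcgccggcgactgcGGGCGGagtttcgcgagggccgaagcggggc
CCNL1: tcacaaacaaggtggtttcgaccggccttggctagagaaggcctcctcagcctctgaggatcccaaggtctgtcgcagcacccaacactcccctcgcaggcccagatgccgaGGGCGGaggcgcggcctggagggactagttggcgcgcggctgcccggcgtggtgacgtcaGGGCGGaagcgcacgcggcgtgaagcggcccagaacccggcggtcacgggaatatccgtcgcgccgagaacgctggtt
NMD3: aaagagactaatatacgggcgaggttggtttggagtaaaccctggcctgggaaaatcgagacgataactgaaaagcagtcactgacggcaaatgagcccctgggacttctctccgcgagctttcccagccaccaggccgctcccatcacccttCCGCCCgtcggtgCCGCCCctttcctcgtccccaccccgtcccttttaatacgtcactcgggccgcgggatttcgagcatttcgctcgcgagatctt
UBE4B held 1 GC box and 1 CCAAT, KIF1B 4 and 2, and CCNL1 and NMD3 2 and 0, and TATAAA was in none of these 4 stretches. Among 35116 RefSeq promoters of the same length, counted with 50 further bases left out, 42.64% held GGGCGG, 32.01% CCAAT and 10.72% TATAAA, with the 3 motifs counted apart. Such matches describe letters and not bound sites.

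The groups differed in depth. As read from the steps between low FPKM values, and in units of 1e+06 fragments, the wild type libraries held 17.5 to 22.5 and those of the knockout 9.46 to 14.5. Between 14111 and 14269 genes reached 1 FPKM in the wild type libraries and 13952 to 14001 in the knockout libraries. Depth and genotype cannot be told apart here. Of 5 genes listed as high in this mesenchymal-like line, VIM (1113 FPKM in the wild type and 2545 in the knockout), CD44 (1093 and 321), CAV1 (512 and 414) and AXL (165 and 234) were detected at high levels, and SPARC was low (0.839 and 2.69). Of 5 listed as low or absent, ESR1 and PGR did not exceed 0.130 FPKM, but EPCAM (27.6 and 11.98), ERBB2 (24.6 and 17.8) and CDH1 (4.15 and 0.311) were detected, which goes against the list. All 7 kidney and neural markers and 4 of 5 leukocyte markers were under 1 FPKM everywhere, with CD68 the exception (105 and 85.9). The summed level of 6 luminal breast markers was 790 to 812 FPKM in wild type libraries and 518 to 549 in knockout libraries. Most of it was KRT8 (399 and 215) and KRT18 (377 and 307), and FOXA1 went the other way (0.00688 and 2.67). The sum of 5 fibroblast and endothelial markers was 10.9 to 15.3 and 5.22 to 6.92. Most of that was COL1A1 (9.81 and 3.29), and COL3A1 (0.0438 and 0.401) and VWF (0.00301 and 0.0537) went the other way. The sum of 5 melanocyte markers was 3.77 to 5.80 FPKM before and 28.7 to 33.4 after knockout, most of it MITF, with TYR at 0 and SOX10 and MLANA near 0. The part of these markers in the values below was not tested. The targeted gene, CD274, read 12.3, 11.2, 12.5 and 12.8 FPKM in the wild type libraries and 9.93, 11.6, 8.19 and 12.5 in the knockout libraries, which overlap. It was at 12.2 ± 0.670 FPKM in the wild type and 10.6 ± 1.91 in the knockout (SD, n = 4 per group), a log2 difference of -0.20 (limma adjusted p = 0.166, and -0.40 with adjusted p = 0.0157 after upper-quartile scaling). Its window, chromosome 9 from 0 to 10 Mb, had a value of 0.14 and did not pass the size limit used below.

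Whole stretches of the genome differed between the knockout and the wild type, in both directions. The tip of the short arm of chromosome 1 and the short arm of chromosome 6 lay lowest, and the 7 highest windows lay on chromosomes 3, 10, 13, 16 and 18. A window was called when limma's adjusted p over all 285 windows was below 0.05 and its value was at least 0.25 from 0. On that rule 78 windows (27.4%) were called higher in the knockout and 34 (11.9%) lower, or 39.3% in either direction. Without the filter on low genes only 2 of 292 windows were called higher and 1 lower. With a pseudocount of 5 in place of 1 the counts were 43 and 14, and with every library centred within 20 bins of transcript GC they were 57 and 43. Without the size limit 223 windows (78.2%) passed, and in 207 (72.6%) the 4 knockout libraries did not overlap the 4 wild type libraries. The window values ran from -1.08 to 0.86, with quartiles of -0.11 and 0.27 around a median of 0.06 and an SD of 0.301. The libraries of a group were close to each other on this scale, since the median standard error of a window's difference was 0.0332. Across windows a wild type library had an SD of 0.0248 to 0.0390 and a knockout library of 0.301 to 0.312, where the wild type is near 0 by construction.

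**Figure D1:**
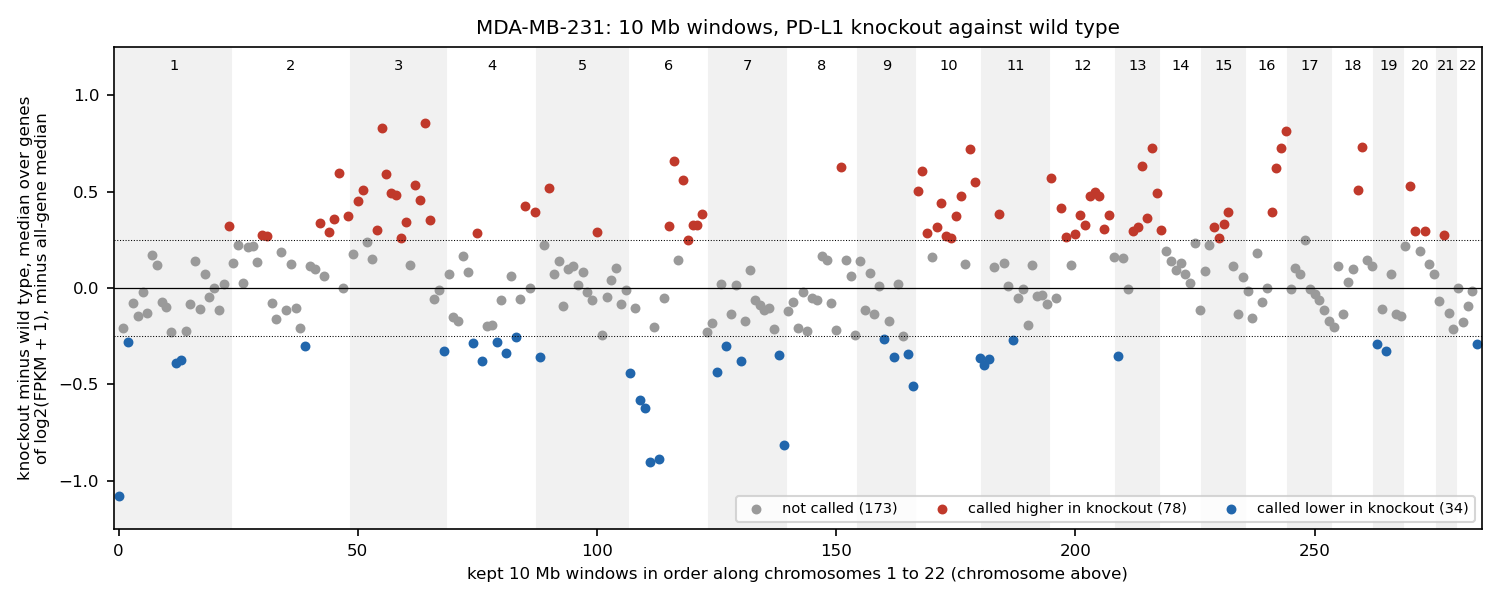
Each point is 1 of the 285 windows in order along chromosomes 1 to 22, and the vertical axis is its value, the median log2 difference of its genes relative to all genes. The 78 windows called higher lie on 17 chromosomes, with 13 on chromosome 3, 11 each on 10 and 12 and 7 each on 2 and 6, the 34 called lower include the first of chromosome 1 and those of 6p, and dotted lines mark the size limit of 0.25.

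The value of a window was partly shared between subsets of its genes. The values of neighbouring windows correlated at r = 0.559 (263 pairs), and values from every other gene of a window correlated with those from the remaining genes at r = 0.651 (285 windows), or 0.714 in the 242 windows with 20 or more genes. Genes with a mean of at least 10 FPKM gave values that correlated with those of lower genes of the same windows at 0.534 (271 windows). These points share the same 8 libraries. A window's value was related to the median GC content of its transcripts at r = -0.261, to their length at 0.117, to its number of genes at -0.205 and to its median level at 0.0302 (285 windows each). Centring the genes within the 20 bins of transcript GC left an SD of 0.290 over windows, and centring within 20 bins of level left 0.301. Position was nevertheless a modest part of what differed between genes. Windows took up 10.8% of the variance of the gene values, arms 7.31% and chromosomes 5.06%. Such a percentage grows with the number of groups, here 285, 39 and 22, even where the grouping carries nothing. On their own 68.2% of all genes passed limma's adjusted p of 0.05 (42.6% higher, 25.7% lower). After upper-quartile scaling, which moved the all-gene median difference from 0.18 to -0.01, those shares became 32.8% and 33.6%, whereas 28.07% of windows were called higher and 12.63% lower.

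A window could also differ because of genes that reached 1 FPKM in libraries of only 1 group, which have to differ. Of the 13961 autosomal genes that passed, 557 did so in wild type libraries only and 348 in knockout libraries only. With these left out, 273 of the 285 windows kept their sign. The median move of a window's value was 0.0158 and the largest was 0.237. Genes named below that passed in wild type libraries only include VWA1, ADGRF1, RARRES2, IFITM1, ADAMTS9, CPNE7, LOXL4 and GNAO1. Those that passed in knockout libraries only include TERT, AADACP1 and PPM1L. The direction of such genes was fixed by the filter.

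Of 39 arms with at least 10 genes, 10 (25.6%) were called higher and 2 (5.13%) lower by the same rule. With a pseudocount of 5 these counts were 3 and 1, with one of 0.1 the lower arms were 4, and without the filter on low genes none was called. The long arm of chromosome 16 was the highest. Its 4 knockout libraries had 0.61, 0.62, 0.61 and 0.61, and its 4 wild type libraries lay between 0.00 and 0.01. Of its 300 genes 76.7% were above the all-gene median (value 0.62, SE 0.0097, limma adjusted p = 5.09e-14). The FPKM ratio of its typical gene with at least 5 FPKM was 1.66. FPKM ratios here and below are divided by the median ratio of all such genes. The short arm of the same chromosome, with 348 genes, was at -0.02 and did not pass the test (adjusted p = 0.902).

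The short arm of chromosome 6, which carries the MHC region and its antigen presentation genes, was the lowest arm. The knockout libraries had -0.54, -0.53, -0.62 and -0.55, and the wild type libraries were within 0.01 of 0. Only 23.2% of its 453 genes were above the all-gene median, and the FPKM ratio was 0.642 (value -0.58, SE 0.0175, adjusted p = 3.72e-11). The long arm went the other way, with 0.29, 0.29, 0.24 and 0.25 in the knockout libraries (value 0.30, 311 genes, 69.1% above). No knockout library of either arm overlapped the wild type libraries, as held for most arms.

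Chromosomes 10 and 12 lay high over both arms. The short arm of chromosome 10 had 0.39, 0.45, 0.50 and 0.37 in the knockout libraries (value 0.43, 135 genes), and the long arm had a value of 0.34 (419 genes). The short arm of chromosome 12 had 0.40, 0.40, 0.40 and 0.37 (value 0.41, 199 genes), and its long arm a value of 0.33 (577 genes). Abundant genes that moved with these chromosomes, named because they did, and those that moved farthest against them are as follows. RPS24, a small-subunit ribosomal protein gene on chromosome 10, had 1296 ± 105 FPKM in the wild type and 2349 ± 91.9 in the knockout (SD and n = 4 here and for all genes below). GAPDH, the glycolytic enzyme gene often taken as a stable reference, lies on 12p and went from 4289.7 ± 87.2 to 7075 ± 122 FPKM, and RPLP0, a ribosomal stalk protein gene on 12q, from 1955 ± 74.3 to 3248 ± 101 FPKM. Ribosomal protein genes and GAPDH have many near-identical pseudogenes, so some of their reads may be placed uncertainly. LOXL4, a lysyl oxidase gene of matrix crosslinking on chromosome 10, went the other way, from 112 ± 1.88 to 0.667 ± 0.145 FPKM, as did KRT7, a simple-epithelial keratin gene on chromosome 12, from 1370.3 ± 36.8 to 37.8 ± 1.45 FPKM. The last window of chromosome 10, from 130 Mb on, was called lower (-0.36, 21 genes). RPS24, GAPDH and RPLP0 rose by 0.86, 0.72 and 0.73 on the log2 scale, with limma adjusted p of 2.28e-06, 1.49e-07 and 5.23e-07.

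The other arms called higher were 20p (0.33), 13q (0.33), 3p (0.31) and 15q (0.25). On 20p the knockout libraries had 0.30, 0.35, 0.31 and 0.30, and on 13q 0.29, 0.28, 0.38 and 0.28. The other arm called lower was 9q, at -0.32, -0.34, -0.32 and -0.34 in the knockout libraries (value -0.32, 403 genes, 29.3% above). The short arm of chromosome 1, at -0.246, was just inside the size limit and not called. Arms 4p, 5q, 8q, 16p, 17p and 17q did not pass the adjusted p.

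**Figure D2:**
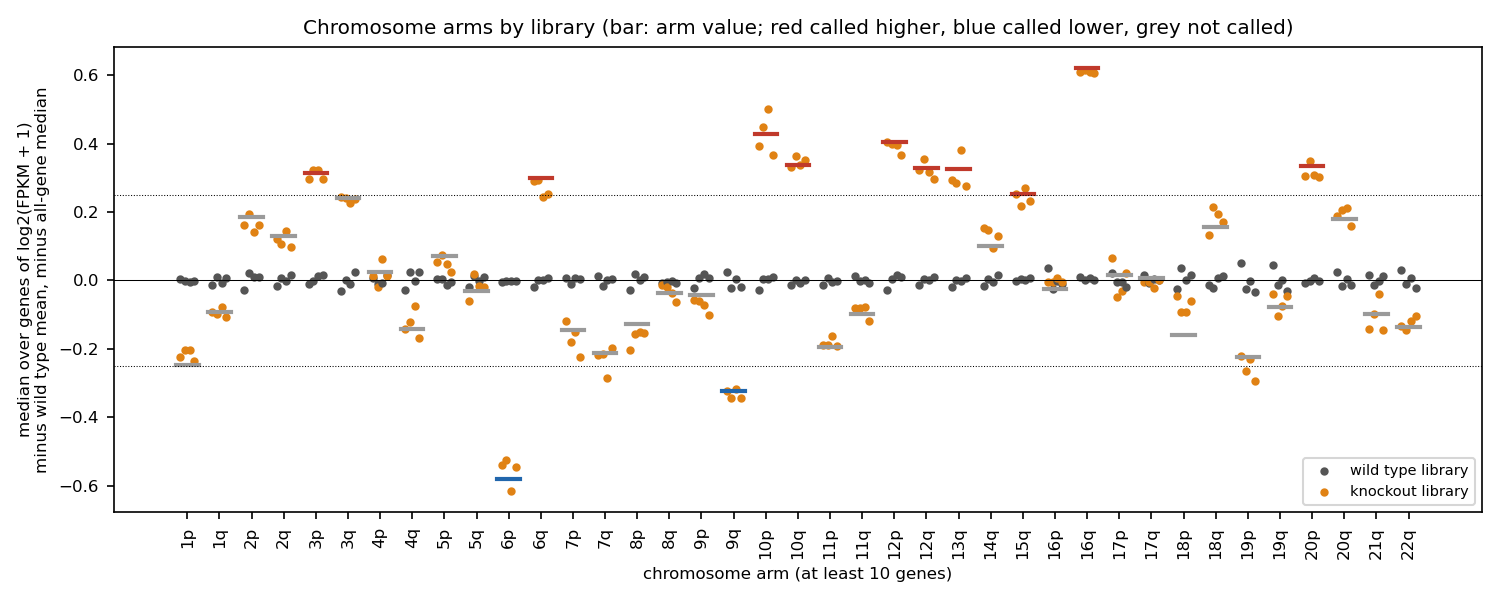
Grey points are the 4 wild type and orange points the 4 knockout libraries of each of 39 arms, and coloured bars are the arm values on the same log2 scale, red where called higher and blue where called lower. The knockout points of 16q lie near 0.61 and those of 6p between -0.62 and -0.53, while those of 16p lie on the wild type points.

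Called windows often stood next to each other. Runs of at least 2 neighbouring kept windows called in 1 direction made 17 blocks of higher windows, 64 windows on 10 chromosomes, and 5 blocks of lower windows, 11 windows on 5 chromosomes. Another 14 windows called higher and 23 called lower stood alone. The longest block was on chromosome 12, from 50 to 130 Mb, with 8 windows, 485 genes and a median of 0.35. Chromosome 3 held a block of 7 windows from 50 to 120 Mb (0.35, 217 genes) and one of 4 windows from 130 to 170 Mb (0.58, 124 genes). Chromosome 10 held 6 windows from 40 to 100 Mb (0.37), chromosome 13 6 windows between 40 and 120 Mb (0.42, across 2 windows with too few genes) and chromosome 6 5 windows from 110 to 160 Mb (0.38). The block with the highest median was that of chromosome 16 from 50 to 90 Mb, at 0.65, with 77.6% of its 286 genes above the all-gene median.

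Lower blocks were shorter, and 3 of the 5 reached an end of a chromosome. The block of chromosome 6 from 20 to 50 Mb was the longest at 3 windows (-0.66), with 196 of 340 genes called lower and 64 higher. Over all genes 25.7% were called lower and 42.6% higher, and the block was delimited by windows called lower. The block at the end of 7q, from 140 to 160 Mb, had a median of -0.46 (107 genes), that of 9q from 120 to 140 Mb -0.45 (225 genes) and that at the start of 11p, to 20 Mb, -0.39 (169 genes). The fifth, on chromosome 1 from 120 to 150 Mb, spans the centromere, has 1 window with too few genes in it and rests on 49 genes (-0.39).

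The lowest window was the first of chromosome 1, from 0 to 10 Mb, with 116 genes. Its knockout libraries had -1.08, -1.03, -1.07 and -1.06, and its wild type libraries lay between -0.04 and 0.06. Of the 116 genes 10 were above the all-gene median, and the FPKM ratio was 0.455 (value -1.08, SE 0.0286, limma adjusted p = 1.82e-09). By gene, 83 were called lower and 7 higher, where 25.7% and 42.6% of all genes were. After upper-quartile scaling it was 93 and 3, where 33.6% and 32.8% of all genes were. The window was picked for its low value, so these counts describe the choice. GNB1, a G protein beta subunit gene, read 237, 244, 255 and 264 FPKM in the wild type libraries and 127, 127, 118 and 107 in those of the knockout, and ENO1, the glycolytic enzyme enolase, from 1844 ± 14.6 to 1298 ± 32.7 FPKM. VWA1, which encodes an extracellular matrix protein, fell farthest, from 20.5 ± 2.68 to 0.156 ± 0.0806 FPKM. KCNAB2, a potassium channel subunit gene, went farthest against the window, from 2.89 ± 0.291 to 26.3 ± 2.59 FPKM, so the window's genes were not moved alike.

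Chromosome 6 held 4 of the 8 lowest windows with at least 20 genes. The window from 40 to 50 Mb had -0.82, -0.84, -0.86 and -0.77 in the knockout libraries and -0.02 to 0.02 in the wild type (value -0.90, 77 genes, 9 above). Windows from 30 to 40 Mb (188 genes) and from 20 to 30 Mb (75 genes) had values of -0.62 and -0.58, and that from 0 to 10 Mb (47 genes) -0.44. In all 4 the groups of libraries did not overlap, as in 72.6% of all windows. MEA1, in the window from 40 to 50 Mb, went from 299.7 ± 10.1 to 156 ± 5.37 FPKM, and YIPF3, a Golgi membrane protein gene, from 165 ± 6.31 to 90.8 ± 12.8 FPKM. ADGRF1, an adhesion receptor gene, went from 52.1 ± 5.97 to 0.364 ± 0.407 FPKM. CLIC1, an intracellular chloride channel gene in the window from 30 to 40 Mb, went from 734 ± 31.1 to 598 ± 26.8 FPKM, against the rise of GPSM3, a regulator of G protein signalling, from 12.7 ± 1.15 to 72.8 ± 6.35 FPKM.

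The windows from 20 to 40 Mb hold clusters of related genes, so both were also computed without the members. The 25 HLA and other MHC genes between 30 and 40 Mb had a median of -2.58, and without them the window's value was -0.54. The 8 between 20 and 30 Mb had a median of -2.45 and left -0.47, and the 16 histone genes of that window had -0.67 and left -0.56. Some HLA genes resemble each other in sequence, so their reads can be split uncertainly by the counting. The HLA and histone genes of the window from 20 to 30 Mb were not removed together. With each cluster removed alone, both windows stayed past the size limit of 0.25. A window on chromosome 4 did not: from 70 to 80 Mb it had a value of -0.38 with its 6 CXCL chemokine genes (median -3.45) and -0.16 without them.

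The end of 7q was the third lowest place on the genome among windows of at least 20 genes. Its last window, from 150 to 160 Mb, had -0.77, -0.72, -0.80 and -0.59 in the knockout libraries and -0.03 to 0.07 in the wild type (value -0.82, 55 genes, 12 above). RHEB, which encodes the small GTPase that activates mTORC1, went from 153 ± 4.82 to 98.2 ± 5.85 FPKM, and SLC4A2, an anion exchanger gene, from 157 ± 12.9 to 83.5 ± 8.07 FPKM. RARRES2, the gene of the chemoattractant chemerin, went from 54.6 ± 4.86 to 0.218 ± 0.0971 FPKM, and INSIG1, a brake on sterol synthesis, went against the window, from 11.7 ± 0.491 to 32.5 ± 2.58 FPKM.

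The end of 9q and the start of 11p were lower by smaller amounts. Chromosome 9 from 130 to 140 Mb had -0.46, -0.43, -0.54 and -0.51 in the knockout libraries and -0.05 to 0.06 in the wild type (value -0.51, 108 genes, 28 above). EDF1, a transcriptional coactivator gene there, went from 428 ± 17.9 to 259 ± 11.3 FPKM and SURF4, a cargo receptor gene of the secretory pathway, from 210.4 ± 13.1 to 150.3 ± 11.7 FPKM, whereas CLIC3 went from 70.5 ± 2.54 to 1.05 ± 0.380 FPKM. AIF1L went against the window, from 1.09 ± 0.344 to 10.8 ± 1.42 FPKM. Chromosome 11 from 0 to 10 Mb had -0.37, -0.45, -0.43 and -0.43 against -0.03 to 0.03 (value -0.40, 120 genes, 30 above). POLR2L, a shared RNA polymerase subunit gene, went from 379 ± 20.3 to 285 ± 20.1 FPKM and CD81, a tetraspanin gene, from 237 ± 8.91 to 204 ± 8.97 FPKM. IFITM1, an interferon-induced gene, moved farthest, and its wild type mean rests on 1 library. It read 10.4 to 10.6 FPKM in replicates 1 to 3, 635 in replicate 4, and 0.200 to 0.838 in the knockout.

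On chromosome 3 the highest window of all ran from 150 to 160 Mb. Its knockout libraries had 0.93, 0.95, 0.87 and 0.80, and its wild type libraries -0.05 to 0.02. Of 37 genes 31 were above the all-gene median, and the FPKM ratio was 1.93 (value 0.86, SE 0.0348, limma adjusted p = 8.69e-09). EIF2A, a translation initiation factor gene, went from 90.7 ± 4.30 to 187 ± 10.8 FPKM and SELENOT, an endoplasmic reticulum selenoprotein gene, from 54.5 ± 5.99 to 88.1 ± 2.86 FPKM. The pseudogene AADACP1 was listed at 0 in 3 wild type libraries and 0.0947 in the other, and at 7.72 to 19.7 FPKM in the knockout. The window from 60 to 70 Mb followed, with 0.72, 0.90, 0.84 and 0.90 in the knockout libraries and -0.03 to 0.02 in the wild type (value 0.83, 26 genes, 22 above).

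The genes of that window went in both directions. THOC7, an mRNA export gene, went from 81.3 ± 6.46 to 229.9 ± 16.3 FPKM and PSMD6, a proteasome subunit gene, from 104 ± 3.21 to 225 ± 5.75 FPKM. MITF, the transcription factor known for melanocytes, went from 3.67 ± 0.572 to 29.6 ± 2.17 FPKM. ADAMTS9, a matrix protease gene in the same window, went from 14.8 ± 0.425 to 0.629 ± 0.109 FPKM.

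The long arm of chromosome 16 held 3 of the 8 highest windows with at least 20 genes. From 80 to 90 Mb the knockout libraries had 0.85, 0.85, 0.87 and 0.77, and the wild type libraries -0.03 to 0.03 (value 0.82, 81 genes, 70 above, FPKM ratio 1.87, limma adjusted p = 4.49e-09). From 70 to 80 Mb they had 0.78, 0.80, 0.72 and 0.72 (value 0.73, 55 genes, 48 above), and from 60 to 70 Mb 0.60, 0.57, 0.56 and 0.59 (value 0.62, 91 genes, 65 above). In none of the 3 did the groups overlap, which held for 72.6% of all windows. RPL13, a large-subunit ribosomal protein gene near the end of the arm, went from 976 ± 41.1 to 2446 ± 63.3 FPKM, and COX4I1, a subunit of respiratory complex IV, from 332 ± 11.02 to 828 ± 59.6 FPKM. CMIP, an adaptor protein gene, went from 36.8 ± 2.06 to 221 ± 10.0 FPKM. Farther in, PSMD7, a proteasome subunit gene, went from 77.2 ± 6.04 to 164 ± 9.41 FPKM, MLKL, the effector of necroptosis, from 7.56 ± 1.68 to 35.4 ± 7.19 FPKM, and NQO1, a quinone reductase gene, from 224 ± 9.49 to 391 ± 14.2 FPKM. Genes of 16q that went the other way were CDH11, which encodes a mesenchymal cadherin, from 74.2 ± 6.51 to 0.932 ± 0.253 FPKM, and CPNE7, a copine gene, from 10.5 ± 2.02 to 0.206 ± 0.140 FPKM.

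The remaining high windows of this size were on chromosomes 18, 10 and 13. Chromosome 18 from 60 to 70 Mb had 0.79, 0.74, 0.93 and 0.98 in the knockout libraries and -0.08 to 0.06 in the wild type (value 0.73, 20 genes, 17 above). Chromosome 10 from 110 to 120 Mb had 0.65, 0.74, 0.68 and 0.68 against -0.06 to 0.01 (value 0.72, 46 genes, 36 above). Chromosome 13 from 70 to 80 Mb had 0.63, 0.64, 0.58 and 0.49 against -0.04 to 0.04 (value 0.63, 22 genes, 19 above). In all 3 the groups were apart, as in 72.6% of all windows. PRDX3, a mitochondrial peroxiredoxin gene on chromosome 10, went from 133 ± 2.90 to 286 ± 8.79 FPKM, and PDCD4, a translation inhibitor gene, from 30.2 ± 2.23 to 148 ± 6.84 FPKM, while AFAP1L2 in the same window went from 29.5 ± 1.90 to 0.571 ± 0.399 FPKM. UCHL3, a deubiquitinase gene on chromosome 13, went from 73.1 ± 5.89 to 125 ± 7.17 FPKM.

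**Figure D3:**
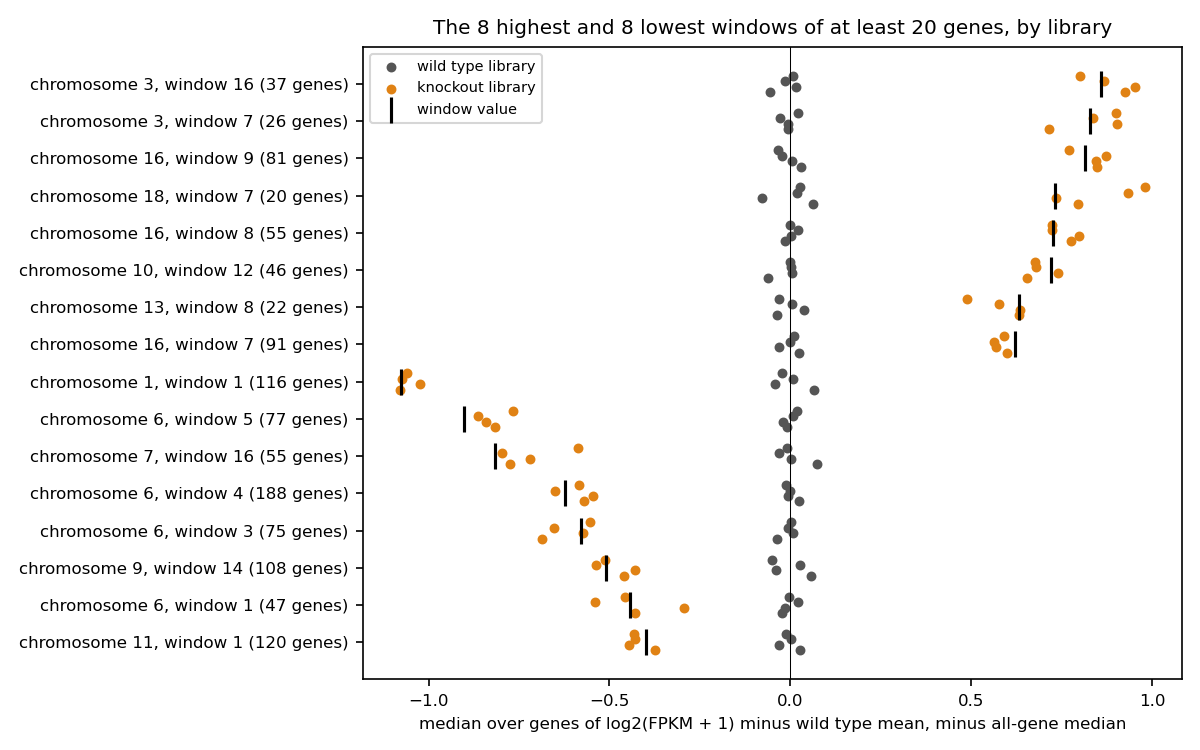
Rows are the 8 highest and 8 lowest windows with at least 20 genes, numbered from the start of each chromosome, so that window 1 is 0 to 10 Mb. Grey points are wild type libraries, orange points knockout libraries and black ticks the window values on the log2 scale. In each of the 16 rows the 2 groups of points are apart, as in 72.6% of all windows, and the rows were picked by their extreme values.

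Between neighbouring windows the value changed gradually in most places and sharply in a few. Of 250 pairs of neighbours with at least 10 genes on each side, 14 (5.6%) stepped by at least 0.5 with a limma adjusted p below 0.05, and without the size limit 172 of 263 pairs (65.4%) passed. The 14 became 4 with a pseudocount of 5, 27 with one of 0.1, 22 with a filter at 5 FPKM, 38 in 5 Mb windows and 0 without a filter. The largest step was on chromosome 10, where the value fell by 0.91 between the windows that start at 120 and 130 Mb. The step in the knockout libraries was -0.72, -0.74, -0.96 and -0.96, and in the wild type libraries -0.07 to 0.05. On chromosome 1 it rose by 0.87 between the windows that start at 0 and 10 Mb, with 0.87, 0.85, 0.85 and 0.78 in the knockout libraries (adjusted p = 1.83e-08). A rise of 0.84 on chromosome 8, between the windows that start at 100 and 110 Mb, rests on 12 genes on its right side.

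The other steps up were of 0.70 on chromosome 6 (40 to 50 Mb), 0.60 on chromosome 10 (100 to 110 Mb), 0.58 on chromosome 5 (0 to 10 Mb) and 0.53 on chromosome 3 (50 to 60 Mb), with starts of both windows in brackets. Those down were of -0.62 on chromosome 12 (0 to 10 Mb), -0.61 and -0.51 on chromosome 6 (150 to 160 and 90 to 100 Mb), -0.59 on chromosome 2 (220 to 230 Mb), -0.58 on chromosome 18 (60 to 70 Mb), -0.53 on chromosome 5 (120 to 130 Mb) and -0.50 on chromosome 3 (150 to 160 Mb). Chromosome 6 held 3 of the 14 and chromosome 3, 5 and 10 held 2 each. The step at 120 to 130 Mb of chromosome 5 was less even than the rest, with -0.63, -0.63, -0.65 and -0.24 in the knockout libraries.

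To place changes more finely than a window, the genes of each chromosome were ordered and divided into segments by least absolute deviation, with at least 20 genes a segment and a penalty for each added break. This describes where the medians change and carries no test. It put 1 breakpoint on each of 4 chromosomes and left the other 18 whole. On chromosome 1 the breakpoint fell between UBE4B (10032832 to 10181239) and KIF1B (10210805 to 10381603), whose promoter sequences are printed above, and the genes are 29566 bases apart. The 117 genes before it had a median of -1.04 with 10 of them above the all-gene median, and the 1320 genes after it -0.11. Knockout libraries had -1.06, -1.02, -1.07 and -1.06 before it and -0.12, -0.12, -0.10 and -0.15 after it. The change next to the break was smaller than between the segments, with medians of -0.70 over the 20 genes just before it and -0.32 over the 20 just after it. Splits that fit nearly as well spanned 9.37 to 10.4 Mb, from SPSB1 to PGD. UBE4B itself had 19.7 ± 1.35 FPKM in the wild type and 13.3 ± 1.43 in the knockout (log2 difference -0.54, adjusted p = 5.78e-04), and KIF1B 5.66 ± 0.469 and 4.77 ± 0.683 (-0.21, adjusted p = 0.113, and -0.39 with adjusted p = 0.0133 after upper-quartile scaling).

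On chromosome 16 the breakpoint fell on the long arm, after GNAO1 (56191347 to 56357457). The 379 genes before it, the whole short arm included, had a median of -0.02, and the 269 genes after it 0.69 with 79.6% above and an FPKM ratio of 1.76. Knockout libraries lay between -0.0031 and 0.0176 before it and 0.66, 0.72, 0.67 and 0.67 after it. Splits that fit nearly as well spanned 50.2 to 58.2 Mb, from RPL10P14 to CSNK2A2, a wider range than on chromosome 1. GNAO1, a G protein alpha subunit gene, went from 6.73 ± 0.407 to 0.489 ± 0.222 FPKM.

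The breakpoint of chromosome 6 also lay beyond the centromere, between the pseudogene KRT19P1 (71584721 to 71585906) and KCNQ5 (72621792 to 73198851), a potassium channel gene. The 466 genes before it had a median of -0.58 with 23.2% above and an FPKM ratio of 0.630, and the 298 after it 0.31 with 71.1% above and a ratio of 1.21. Knockout libraries had -0.54, -0.53, -0.62 and -0.55 before it and 0.31, 0.34, 0.26 and 0.27 after it. The range of nearly equal splits was 70.9 to 78.9 Mb. RPS12, a ribosomal protein gene beyond it, went from 1067 ± 59.4 to 1631 ± 84.9 FPKM, and AKAP12, a scaffold of protein kinase A, from 1.66 ± 0.196 to 36.1 ± 0.653 FPKM.

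On chromosome 3 the higher segment ended between the pseudogene RPL23AP42 (161429127 to 161429597) and PDCD10 (167683298 to 167734939), with no gene at the expression minimum in the 6253701 bases between them. The 681 genes before it had a median of 0.34 and the 143 genes after it -0.04. Knockout libraries had 0.36, 0.38, 0.37 and 0.36 before it, and -0.07, -0.08, -0.09 and -0.13 after it. All of the 20 genes just before it were above the all-gene median, with a median of 1.249, and 6 of the 20 just after it, with a median of -0.32. This is the only one of the 4 where the values next to the break were farther apart than those of the 2 segments.

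**Figure D4:**
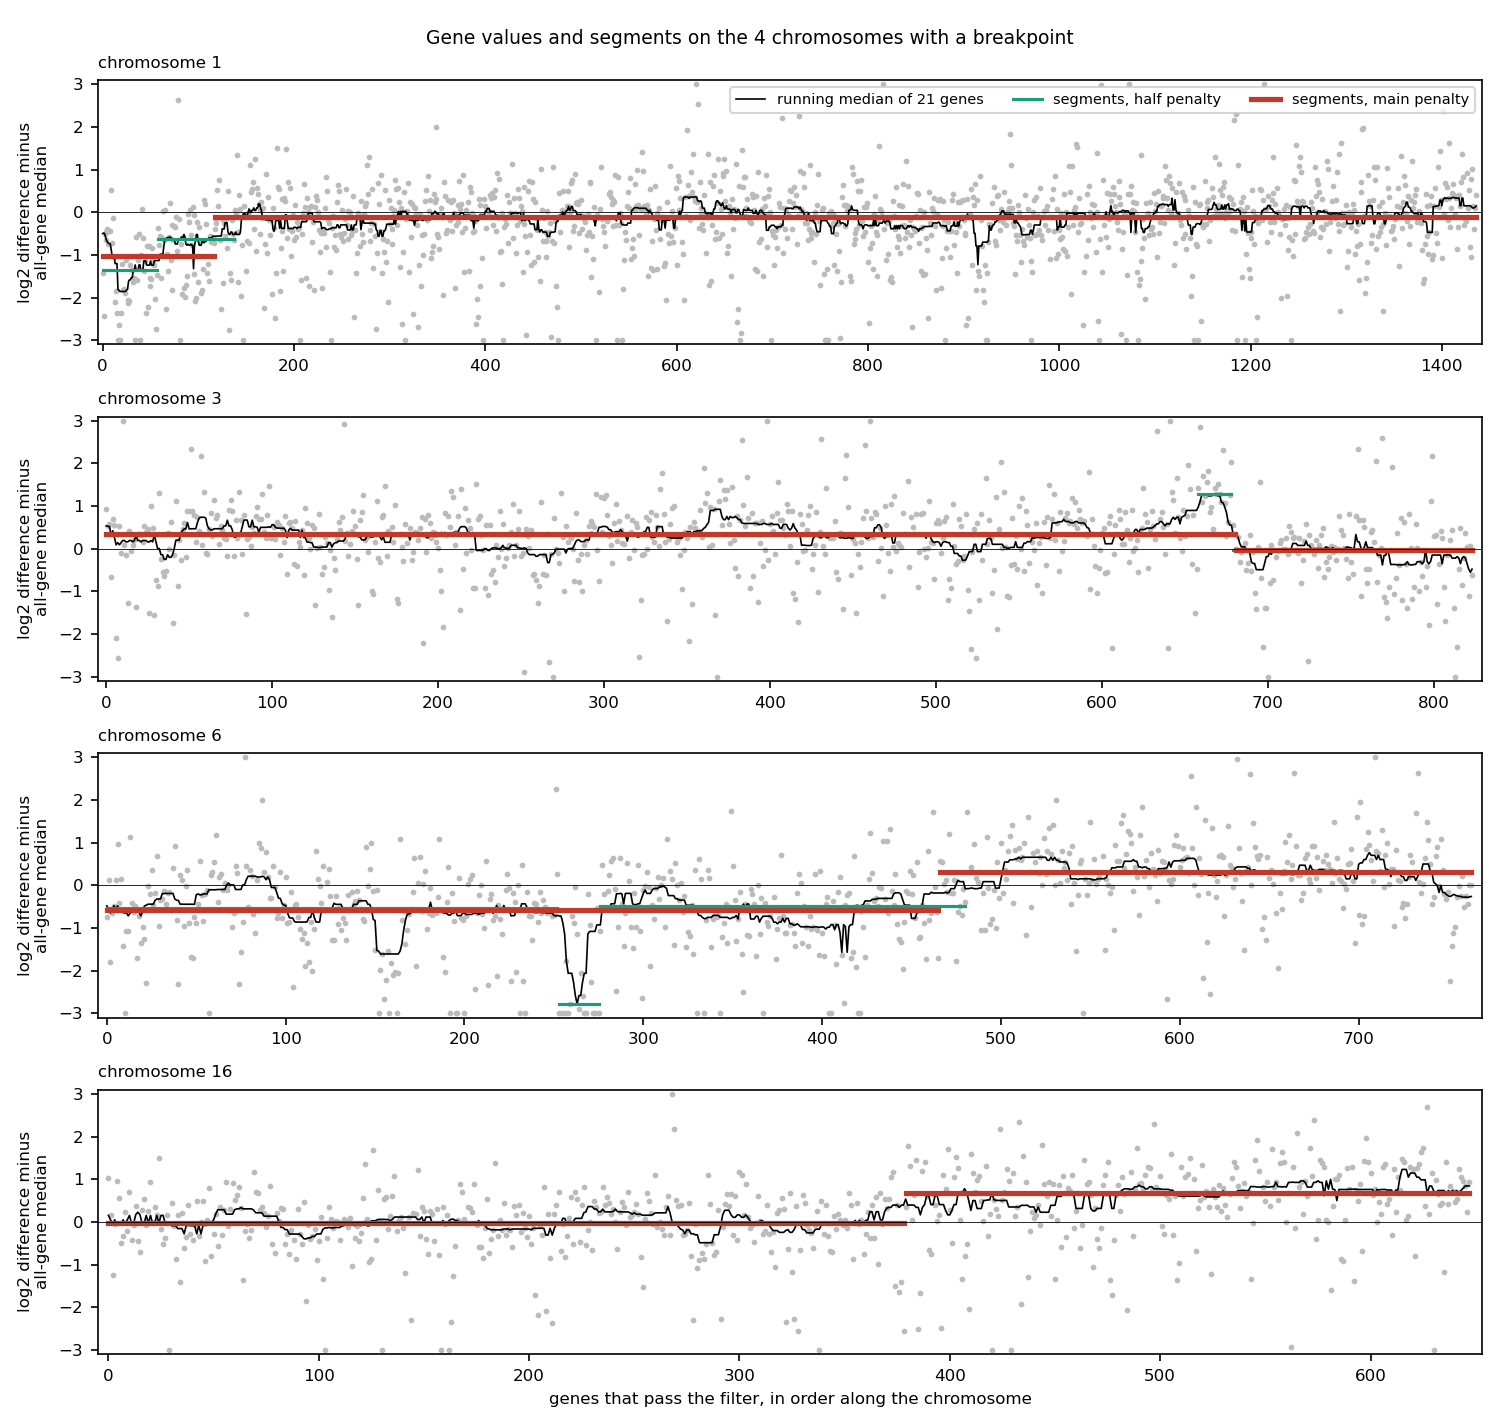
Each panel is 1 of the 4 chromosomes with a breakpoint, with genes in order along the horizontal axis and their log2 difference minus the all-gene median on the vertical axis (points beyond 3 drawn at 3). Red lines are segment medians, green lines those at 0.5 times the penalty and the black line a running median. Red lines step from -1.04 to -0.11 on chromosome 1, from 0.34 to -0.04 on 3, from -0.58 to 0.31 on 6 and from -0.02 to 0.69 on 16.

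At 0.5 times the penalty, which gives 20 breakpoints, shorter runs stood out, and they were looked at after their values were known. The run with the highest median was that from CCNL1 to NMD3 on chromosome 3 (157146508 to 161253532), which overlaps the highest window. Its 21 genes were delimited by their high values, so their counts describe the choice and nothing is read from them: 21 were called higher (42.6% of all genes were), 21 had groups that did not overlap (62.7% of all genes) and 21 were called higher after upper-quartile scaling. PPM1L passed the expression minimum through the knockout libraries alone (0.379 and 1.42 FPKM). Their median was 1.28 and the FPKM ratio 2.41, and the gene values ran from 0.30 for the pseudogene KRT8P12 to 2.86 for VEPH1. CCNL1 went from 33.5 ± 4.75 to 103 ± 8.44 FPKM and NMD3 from 13.2 ± 1.56 to 65.1 ± 5.08 FPKM.

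Genes with quite different roles lie in that run. SMC4, a condensin subunit gene needed to compact chromosomes in mitosis, went from 139 ± 18.004 to 337 ± 36.1 FPKM, and KPNA4, a nuclear import receptor gene, from 34.4 ± 2.44 to 83.6 ± 5.68 FPKM. GFM1, a mitochondrial elongation factor gene, went from 19.4 ± 3.54 to 79.4 ± 6.64 FPKM. The secreted pattern recognition gene PTX3 went from 30.3 ± 0.442 to 74.9 ± 1.21 FPKM and IL12A, a cytokine subunit gene, from 1.10 ± 0.191 to 5.83 ± 0.843 FPKM. TRIM59, a ubiquitin ligase gene, went from 2.80 ± 0.24996 to 20.6 ± 2.88 FPKM and VEPH1 from 1.37 ± 0.391 to 18.4 ± 2.15 FPKM. The smallest rise among the 21 genes with a wild type mean above 30 FPKM was that of MFSD1, a lysosomal membrane transporter gene, from 35.5 ± 2.13 to 56.6 ± 8.39 FPKM. RefSeq promoters matched 18 of the 21 genes: 7 held GGGCGG, 6 CCAAT and 2 TATAAA, which shows no motif held by all.

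**Figure D5:**
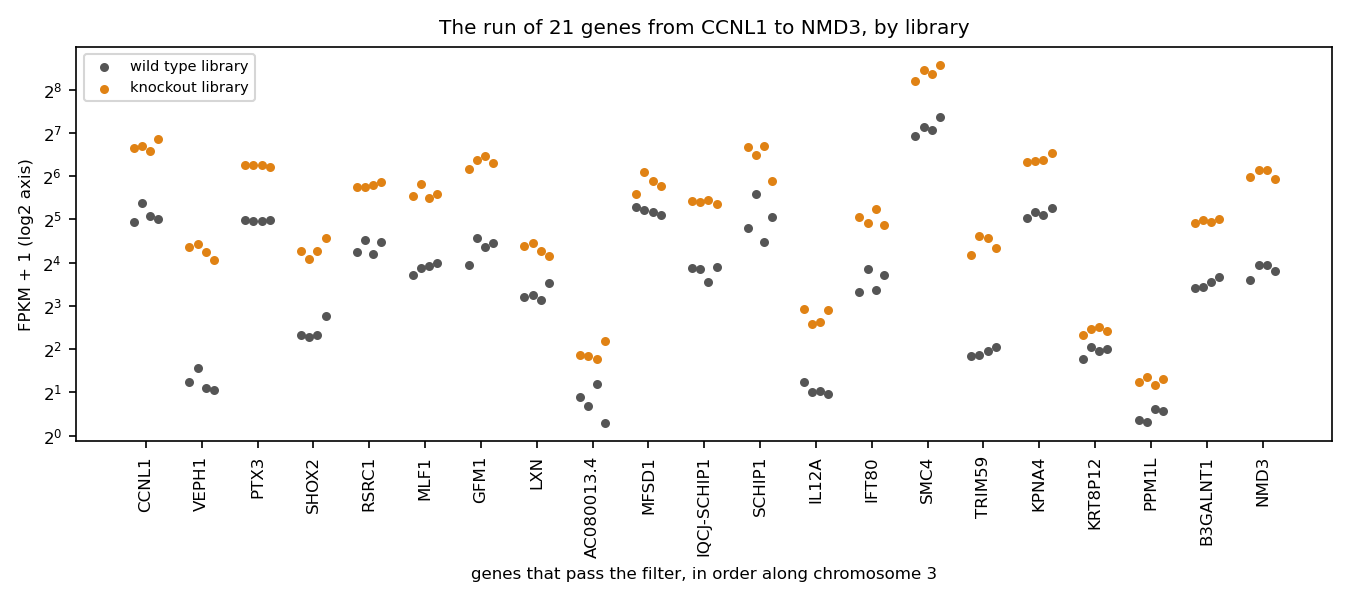
The 21 genes from CCNL1 to NMD3 are in order along the horizontal axis, with FPKM + 1 on a log2 axis, grey for the 4 wild type and orange for the 4 knockout libraries. In every gene the orange points lie above the grey ones, from the gene with the lowest wild type mean, PPM1L (0.379 and 1.42 FPKM), to that with the highest, SMC4 (139 and 337 FPKM).

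Among the other runs at this lower penalty, the low end of chromosome 1 divided into 2. Its first 58 genes, to 2.19 Mb, had a median of -1.37 with 2 above the all-gene median, and the next 80 genes, from FAAP20 on, had -0.62. INTS11, a subunit of the Integrator complex, is one of the 58 and went from 123 ± 12.8 to 68.0 ± 7.48 FPKM. The 23 genes from HLA-DRA to RNY4P10 on chromosome 6, the MHC class II region with its antigen processing genes, had a median of -2.78 with 0 above, on a background of -0.54 before and -0.48 after them. On 7q the low run took in 137 genes from SLC35B4 on, at 134.3 Mb (-0.46). On 9q it was the last 50 genes, from INPP5E to EHMT1 (-0.75, 44 below), among them DPP7, a lysosomal peptidase gene that went from 139 ± 7.42 to 76.2 ± 7.25 FPKM.

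Chromosome 11, which had no breakpoint at the main penalty, alternated at the lower one. Its medians were -0.37 over 175 genes to 27.5 Mb, 0.26 over 179 genes, -0.51 over the 172 genes from LGALS12 to PPFIA1 (63.5 to 70.4 Mb) and -0.03 over the last 311. GSTP1, a glutathione transferase gene of the third run, went from 370.2 ± 7.91 to 271 ± 15.98 FPKM. On chromosome 13 the 102 genes from NEK3 on had a median of 0.51 with 85 above, among them IPO5, a nuclear import receptor gene, from 77.2 ± 6.42 to 173 ± 6.04 FPKM, and ZIC2, a developmental transcription factor gene, from 5.88 ± 1.88 to 51.5 ± 3.48 FPKM. On chromosome 18 the 81 genes from RPL17 on had 0.46 with 62 above, after -0.08 over the 130 genes before them. RPL17, which overlaps the readthrough gene RPL17-C18orf32 and may share its reads, went from 615 ± 28.7 to 1225 ± 61.3 FPKM. On chromosome 19 a run of 39 genes from RAB3D to MAN2B1 (11.3 to 12.7 Mb) had -0.81 with 5 above, on a background of -0.26 and -0.09. There PLPPR2 went from 15.8 ± 0.459 to 2.81 ± 0.794 FPKM and the lysosomal mannosidase gene MAN2B1 from 44.5 ± 4.36 to 25.3 ± 5.90 FPKM. The last 285 genes of chromosome 2, from AGPS on, had a median of 0.31 and the last 79 of chromosome 4, from TMEM131L on, 0.37.

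Known cancer genes were read against the windows they lie in. Of 51 listed genes 47 were tested, and 25 were called higher and 8 lower, where 42.6% and 25.7% of all genes were. After upper-quartile scaling the counts were 17 and 13, where 32.8% and 33.6% of all genes were called. Their median relative to all genes was 0.13. Of the 47, 32 had the sign of their window. In windows called higher 8 of 10 were called higher, and in windows called lower 2 of 8 were called lower. Each gene is part of its own window's median, and the same counts were not made over all genes, so nothing is read from them. CDKN2A, CDKN2B and MTAP, neighbours on 9p, and SOX2 on 3q were not tested, with 0.733 FPKM as the highest value of the 4 in any library.

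Genes that went with their windows included SMAD4, VHL, CDK4 and HRAS. SMAD4, the common mediator of TGF-beta signalling, went from 24.5 ± 3.40 to 47.3 ± 0.635 FPKM in a window of 0.51 on chromosome 18. VHL, the tumour suppressor of oxygen sensing, went from 16.7 ± 1.19 to 29.6 ± 0.354 FPKM in a window of 0.45 on chromosome 3. CDK4, the cyclin D kinase gene, went from 160.02 ± 4.71 to 383 ± 16.1 FPKM in a window of 0.28 on chromosome 12. HRAS went from 211 ± 26.7 to 132 ± 23.5 FPKM in the low first window of chromosome 11.

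Others moved against their windows, more than them or, for TSC1, without passing the test. TERT, the catalytic subunit of telomerase, went from 0.583 ± 0.168 to 5.76 ± 1.33 FPKM in a window called lower (-0.36) at the start of chromosome 5. TERT passed the expression minimum through the knockout libraries alone, so its direction was fixed by the filter. SKP2, a ubiquitin ligase subunit gene that promotes S phase, went from 20.5 ± 1.68 to 65.4 ± 2.58 FPKM in a window of 0.07. NF2 went from 1.19 ± 0.197 to 4.15 ± 0.869 FPKM in a window of -0.18, and CDK6 from 5.19 ± 0.401 to 12.1 ± 0.300 FPKM in a window of -0.06. TSC1, in the low window of 9q, had 13.3 ± 1.06 and 11.3 ± 1.72 FPKM and did not pass the test (adjusted p = 0.115, and 0.00640 after upper-quartile scaling).

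Genes near 0 in 1 group were scattered more than blocked. A mean under 0.1 FPKM in the knockout with at least 1 in the wild type was found for 169 autosomal genes, and the reverse for 94. They formed 6 runs of at least 3 neighbours. Of these, 2 were HLA class II genes, a run of 6 from HLA-DRB5 to HLA-DQB2 and one of HLA-DOA, HLA-DPA1 and HLA-DPB1, and others were the cystatin genes CST4, CST1 and CST2 on 20p, in an arm called higher, and PRSS2, TRBC1 and TRBC2 at the low end of 7q. Some of these genes belong to families of similar sequence, so how reads were divided between members of 1 family may be uncertain.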

How the data were processed

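RNA of 4 wild type and 4 PD-L1 knockout MDA-MB-231 libraries was sequenced. The deposited table holds FPKM per gene and library, computed by the authors. The submitters' processing notes name bcl2fastq 2.18, STAR 2.5.4a, Cufflinks 2.2.1, Cuffdiff and the builds hg38 and mm10, and name no other settings. FPKM are relative to a library's own total, so a change in a few abundant genes moves all values, which centring on the all-gene median removes. Depth was inferred from the steps between low FPKM values. All 58713 gene IDs matched GENCODE 29, 27 symbols turned into dates by a spreadsheet were restored, and 13 genes whose estimate failed are listed at 0 in every library.

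Values were log2(FPKM + 1), a scale that understates changes of low genes, for 14450 genes at 1 FPKM or more in at least 4 of 8 libraries. A library's value for a window is the median over its genes of the value minus the gene's wild type mean, centred on all genes. Windows, arms, steps and genes were tested with limma 3.58.1 (R 4.3.3; mean-variance trend for genes) with Benjamini-Hochberg adjustment over all tested units. Only the 8 MDA-MB-231 libraries entered, with group as the only term. Gene calls use an adjusted p of 0.05, windows and arms also a size of 0.25, steps a size of 0.5. Arm boundaries are whole Mb taken from general knowledge. Windows follow the start of the deposited locus, and 36 genes would change window by their annotated start. FPKM ratios are medians over genes with a mean of at least 5 FPKM, divided by the median ratio of all such genes. Segments come from dynamic programming on values limited to 2 either way, with Python 3.11.15, numpy 2.4.6, pandas 2.3.3 and numba 0.67.0, and matplotlib 3.10.9 drew the figures. The procedure was tested on simulated data.

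Named were the 8 highest and 8 lowest windows with at least 20 genes, the genes flanking breakpoints, and in each window or segment its typical abundant genes and those that moved farthest with and against it. Segments named were the 6 highest and 6 lowest by median. A list of cancer genes and one of cell markers was added. Genes of runs at 0.5 times the penalty were chosen after their values were seen. Some genes that the rule names are not reported here. The windows, lists and tests were chosen with earlier results of these data known.

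Replicate numbers did not pair the samples (correlation of deviations between same-numbered libraries -0.037 to 0.0044 over 4 pairs). Alternatives covered the pseudocount, filter, scaling, window size and position, gene choice, penalty, replicate block and each library left out, with 3 more chosen after seeing the data.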

Additional observations from a re-analysis of the deposited data

Results flagged for a closer look

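In each group of 4 libraries the value at one end was compared with its neighbour by Dixon's criterion (the gap as a share of the group's range, at the 95% limit). Of 306 groups checked 18 had such a library, where chance gives about 1 in 20. Among windows, arms, steps and segments it was 4 of 100 groups. The step on chromosome 5 from 120 to 130 Mb read -0.24 in knockout replicate 4 and -0.65 to -0.63 in the others. The segment from KCNQ5 to PDCD2 read -0.020 in wild type replicate 1 and 0.0027 to 0.0069 in the others. The window of chromosome 10 from 110 to 120 Mb read -0.062 in wild type replicate 1 and at most 0.0052 in the others. The arm 20p read 0.35 in knockout replicate 2 and 0.30 to 0.31 in the others.

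Among genes it was 14 of 206 groups, given here as the library apart and the range of the other 3, in FPKM. In wild type replicate 4 AADACP1 read 0.0947 (0 in the others), IFITM1 635 (10.4 to 10.6) and MUC5B 0.198 (0.00301 to 0.0297). In wild type replicate 2 NQO1 read 238 (218 to 221), RPS24 1453 (1229 to 1265) and RPL17 657 (596 to 604), and in wild type replicate 3 SURF4 read 230.0 (202 to 205). In knockout replicate 2 PSMD6 read 233 (221 to 223), COX4I1 916 (785 to 807) and CDH11 1.31 (0.759 to 0.844). In knockout replicate 3 AFAP1L2 read 1.17 (0.324 to 0.402) and ADGRF1 0.971 (0.130 to 0.225). AKAP12 read 35.1 in knockout replicate 1 (36.3 to 36.5) and PTX3 73.1 in knockout replicate 4 (75.3 to 75.7).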

How the results depend on the processing

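Of 336 comparisons of the 16 named windows with an alternative, 321 kept the direction and the call, 15 kept the direction but lost the size limit, all of them without a filter on low genes, and 0 reversed. Without that filter 0.6849% of windows were called higher and 0.3425% lower, and 0 arms in either direction and 0 steps passed both the adjusted p and the size limit. In that setting 20.55% of genes were called higher and 14.81% lower (6459 and 4656 of 31429). With a pseudocount of 5 windows called higher were 15.09% and lower 4.912%, arms 7.692% and 2.564%, and steps 1.6%. With a pseudocount of 0.1 arms called lower were 10.26% and steps 10.8%. Steps were 9.649% with a filter at 5 FPKM and 10% in 5 Mb windows, and windows called lower 7.895% in 20 Mb windows. A penalty 0.5 times as large gave 20 breakpoints, 3 of the 4 at the main penalty among them within 20 genes, and the cause of these differences was not tested. Centring within transcript GC bins, chosen after seeing the data, called 17.95% of arms higher and 7.692% lower.

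Leaving out each library in turn gave 25.26 to 27.72% of windows higher and 11.58 to 13.33% lower, 23.08 to 25.64% of arms higher and 5.128 to 7.692% lower, 5.6 to 7.2% of steps, 40.54 to 41.68% of genes higher and 24.03 to 25.2% lower, and 4 to 6 breakpoints. The added breakpoint was on chromosome 18, at RPL17 or ACAA2, in 5 of 8 such runs, and on chromosome 4, at PLRG1, without wild type replicate 1. Without knockout replicate 1 or 2 the breakpoint of chromosome 16 moved to CFAP20, more than 20 genes on. With the replicate block 27.37% of windows were called higher and 11.93% lower, 25.64% and 5.128% of arms, 5.6% of steps, and 41.7% and 25.07% of genes. For 174 genes (those the naming rule picks, the tested cancer genes and the others in the text), 2326 of 2425 comparisons kept direction and call, 72 lost a call (16 genes), 10 gained one (9 genes) and 17 changed sign (13 genes). Upper-quartile scaling took the call from 8 genes, ARID1A, LMO7 and RPL21 among them, gave one to 6, KIF1B, TSC1 and CD274 among them, and changed the sign of 11. Those 11 became -0.0391 (PDCD10, limma adjusted p = 0.867), -0.0155 (TPT1, called before, adjusted p = 0.768) and, for cancer genes, -0.203, -0.154, -0.0143, -0.00887, -0.133, -0.116, -0.0581, -0.0777 and -0.0790. Leaving out a library changed the sign of 5 cancer genes that were not called, whose values then ran from -0.0132 to 0.0311, -0.00649 to 0.270, -0.149 to 0.00330, -0.00330 to 0.268 and -0.0611 to 0.0519, and took the call from 10 genes, FGFR1 and TIPARP among them. Depth was lower in every knockout library than in every wild type library, so low genes are less precise there and the 2 cannot be told apart.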
